A study of Mus musculus with 24 samples.

Results

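Late culture of HBC-3 cells on Matrigel, at days 5 to 7, was compared with early culture, at days 1 to 3. HBC-3 is a mouse hepatoblast line, a fetal liver cell with both hepatocyte and bile duct fates open to it, and Matrigel is a gel of basement membrane proteins on which the line differentiates. The arrays were chosen by the day in their titles: 9 late and 9 early arrays, 18 of the 24 in the series, with replicate letters A, B and C on each day. The late group held HBC-3 cells after 5, 6 and 7 days on Matrigel, and the early group held the same line after 1, 2 and 3 days. The 3 arrays of day 4 and the 3 of day 0 (undifferentiated cells) entered no test.

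All groups shared a single cell line that had been separated from its STO fibroblast feeder layer by trypsin and replated on plastic, so carried-over feeder cells are possible in every group. All arrays shared a Cy3 reference from undifferentiated HBC-3 cells, whose RNA was pooled from 20 plates, and all RNA was amplified before labelling. A value is the log2 of the sample over this reference after each array was centred on its median. Base 2 and this direction are likely from the range of the values and the dyes in the labels, but are not stated. If the ratios run the other way, every sign below turns. Ratios of this kind give no level of one gene against another, and in a culture of mixed cells fewer cells of a type and less RNA per cell cannot be told apart.

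As background, hepatoblasts are dividing progenitors that express Afp, Igf2 and H19 and later give rise to hepatocytes, which secrete plasma proteins, or to bile duct cells, which form polarised tubes. Contact with basement membrane acts through integrins and syndecans on the actin cytoskeleton. Slower growth in culture usually goes with less synthesis of ribosomes.

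For each gene the 3 arrays of a letter within a period were averaged, which gave 3 late and 3 early letter means, and limma tested late minus early over these 6 means. Of 9979 units tested (5459 genes and 4520 features with no single gene name), 0 passed an adjusted p of 0.05 (0% called), and the lowest adjusted p was 0.0817. At an unadjusted p under 0.05 stood 477 units higher (4.78%) and 560 lower (5.61%). The 3 late letter means lay wholly above the 3 early ones in 963 units (9.65%) and wholly below in 1140 (11.4%). All 9 late arrays lay above all 9 early arrays in 25 of the 7609 units with every value (0.329%) and below in 28 (0.368%). An exact permutation test of 3 against 3 cannot give a 2-sided p below 0.1, so that test could not pass 0.05 for any single gene. "Higher" and "lower" below give values of genes that missed the adjusted threshold, and each adjusted p is limma's over all 9979 units.

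Late cultures differed among themselves more than early ones. The SD of the 3 letter means had a median of 0.36 late and 0.13 early, and was larger late in 8471 of 9979 units. Late C stood apart: the late C arrays correlated with each other at 0.802 to 0.935 but with the late A and B arrays at 0.449 to 0.637, across units. Day 6 B also correlated at only 0.571 with the other late B arrays, which correlated with each other at 0.913. Early arrays correlated with each other at 0.632 to 0.937, and early A with early C of the same day at 0.893 to 0.92. These are values across units, which are not independent replicates. Of 150 units that differed by more than 1 in either direction, 119 had late C as the letter farthest from the early mean, so values without late C are given below. The SD of the values on an array was 1.05, 1.01 and 1.06 on the late C arrays. It was 0.67 to 0.95 on late A and B arrays, 0.56 to 0.83 on early arrays, and 0.998 on day 4 C. How far this wider scale enters the 119 was not tested. Nothing in the labels says whether letters were separate cultures, so the p-values measure the spread between these letters, which may be technical. Values per array numbered 12328 to 17845 late and 17150 to 22149 early, of 24157 features.

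**Figure D1:**
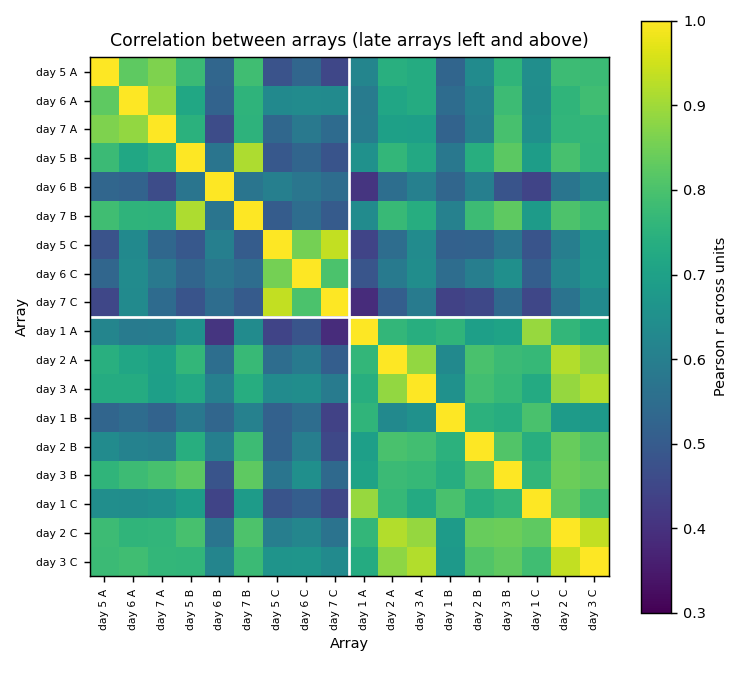
Pearson correlation across units between each pair of the 18 arrays, with late arrays left of and above early arrays and colour giving r. The block of 3 late C arrays correlates within itself at 0.802 or more and with the other late arrays at 0.637 or less.

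The genes named in most detail are the 12 with the largest positive and the 12 with the largest negative late minus early value among genes with a value on all 18 arrays and letter means that do not overlap, of which there were 363 and 504. Since size and separation chose them, their values are a description. At the edge, C1ra (1.11) was the last gene taken on the higher side and Dpp7 (1.09) the next, and Stim1 (-1.13) the last on the lower side and Tmem126a (-1.10) the next.

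**Figure D2:**
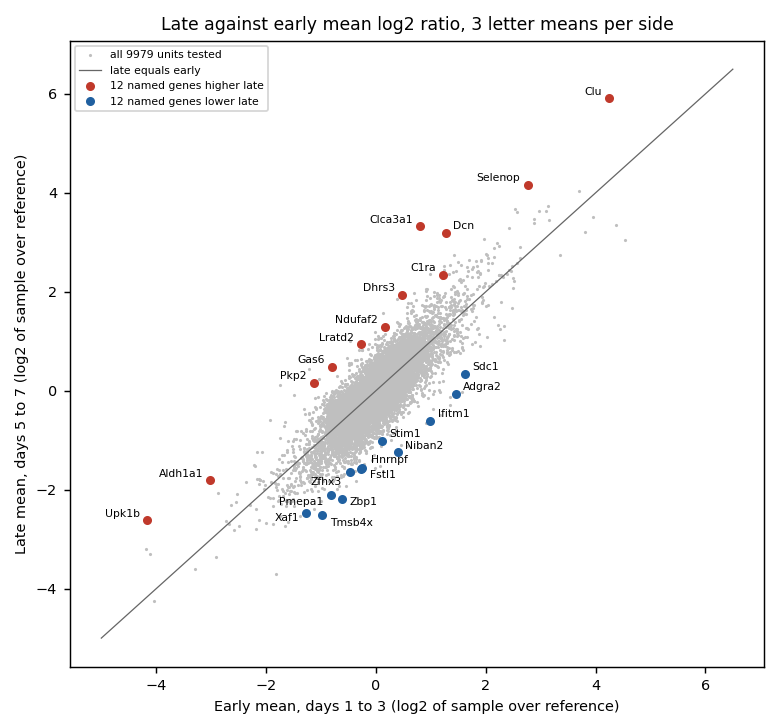
Mean of the 3 late letter means (vertical axis, log2 of sample over reference) against the mean of the 3 early ones (horizontal axis, same unit) for all 9979 units tested (grey), with the 12 named genes on each side in colour. Clu and Selenop were already far above the reference early, whereas Upk1b and Aldh1a1 stayed below it on both sides.

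Among secreted and extracellular proteins, Clca3a1 showed the largest late value relative to early. Clca3a1 encodes a secreted chloride channel accessory protein. Late letter means A, B and C were 3.07, 3.02 and 3.88, and early ones 0.74, 0.85 and 0.85. The 9 late arrays ran from 2.42 through a median of 3.16 to 4.70, and the 9 early arrays from -0.99 through 1.00 to 2.35, so the groups did not overlap. Late minus early was 2.51 ± 0.26 (SE, 3 letters per side; adjusted p = 0.0817), and 2.24 without late C. The early arrays climbed day by day, with all 3 letters below 0 on day 1, between 0.65 and 1.03 on day 2 and between 2.20 and 2.35 on day 3. The neighbouring paralogs of this gene family are similar in sequence, and cross-hybridisation was not tested.

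Dcn encodes decorin, a small proteoglycan that binds collagen fibrils and growth factors. It averaged 3.19 ± 0.26 late and 1.28 ± 0.35 early (SD, n = 3 letters each), a difference of 1.91 ± 0.24 (SE; adjusted p = 0.145). The late arrays ran from 0.98 through 3.37 to 4.37 and the early arrays from -0.47 through 1.58 to 3.87, so single arrays overlapped: day 6 B was lowest late, and day 3 B was highest early. Without day 1 the difference was 1.15.

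Clu, encoding the secreted chaperone clusterin, averaged 5.91 ± 0.88 late and 4.25 ± 0.53 early (SD, n = 3 letters each). Late arrays ran from 4.59 through 6.12 to 6.88 and early arrays from 1.93 through 4.59 to 6.62. Its day means were 2.08, 4.91 and 5.75 on days 1 to 3, 6.19 on day 4, and 6.03, 5.95 and 5.75 on days 5 to 7. The late minus early value of 1.66 ± 0.45 (SE; adjusted p = 0.404) therefore sets a plateau against a climb, and without day 1 it was 0.58. Selenop, encoding the selenium carrier of plasma that the liver secretes, averaged 4.16 ± 0.73 late and 2.76 ± 0.29 early (SD, n = 3 letters each). Its difference was 1.40 ± 0.36 (SE; adjusted p = 0.404), 0.73 without day 1 and 0.99 without late C. C1ra, a complement protease gene, averaged 2.34 late and 1.22 early, with a difference of 1.11 (0.67 without day 1).

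Gas6, the ligand of the TAM receptor tyrosine kinases, lay between -0.05 and 0.79 on the late arrays and between -1.51 and 0.83 on the early arrays. Its early values split by letter: early B reached 0.20 on day 2 and 0.83 on day 3, while A and C stayed at -0.52 or below on every early day. The difference was 1.28 ± 0.30 (SE; adjusted p = 0.404), and 1.43 without late C.

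Aldh1a1 and Dhrs3 code for enzymes of retinaldehyde. Aldh1a1, which oxidises retinaldehyde to retinoic acid, was far below the reference early and less so late. The late arrays ran from -2.78 through -1.92 to -1.003 and the early arrays from -3.23 through -3.05 to -2.67. Early values hardly varied (letter means -2.91, -3.16 and -2.98), and late B (-2.34) lay nearest to them, with late A at -1.42 and late C at -1.67. The difference of 1.21 ± 0.26 (SE; adjusted p = 0.376) was 1.14 without late C and 1.20 without day 1. Dhrs3, a retinaldehyde reductase gene, averaged 1.94 ± 0.45 late and 0.48 ± 0.69 early (SD, n = 3 letters each), with a difference of 1.46 that was 0.67 without day 1.

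Upk1b, a tetraspanin of the urothelial membrane plaque, was the named gene with the lowest early mean. Its late letter means were -1.89, -3.82 and -2.14, and its early ones -3.92, -4.47 and -4.09, so late B lay close to the early range. The difference was 1.55 ± 0.47 (SE; adjusted p = 0.408). Pkp2, encoding the desmosomal protein plakophilin 2, had late letter means of 0.09, -0.89 and 1.29 and early ones of -1.05, -1.40 and -0.92. Its difference of 1.29 became 0.72 without late C. Lratd2, a gene of unsettled role, differed by 1.22 (0.80 without day 1). Ndufaf2, an assembly factor of respiratory complex I, separated on all 18 arrays, from 0.70 to 1.80 late and from -0.23 to 0.55 early (difference 1.12 ± 0.24, SE; adjusted p = 0.376).

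**Figure D3:**
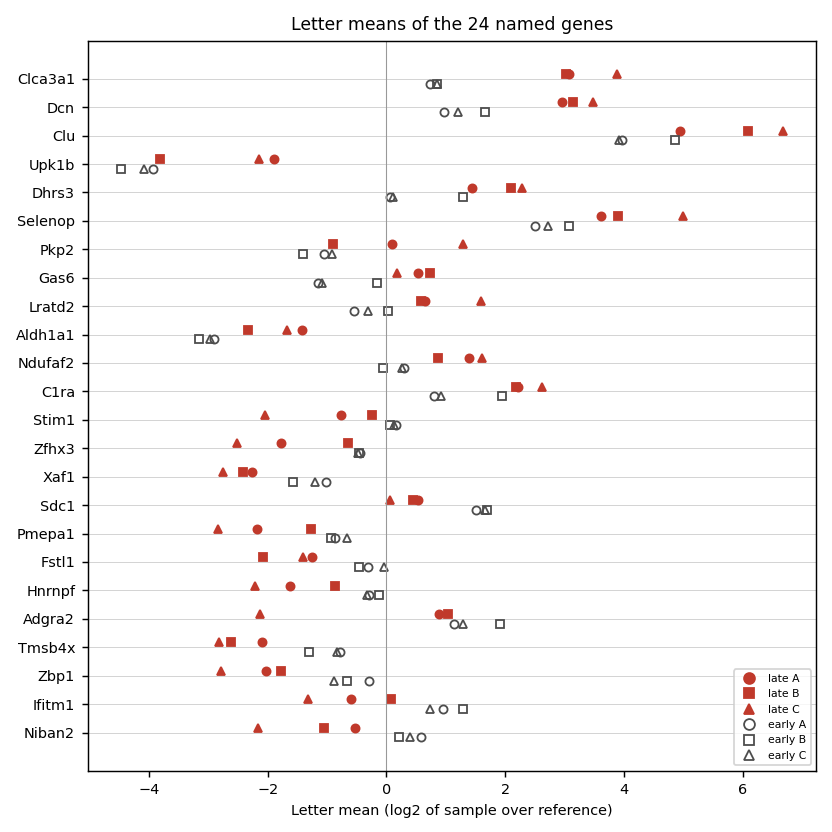
Letter means (log2 of sample over reference) of the 24 named genes, late in filled red symbols above early in open grey symbols, with circles, squares and triangles for letters A, B and C. Late C is the late letter farthest from the early mean for every gene except Upk1b, Gas6, Aldh1a1 and Fstl1. The early symbols of most genes lie close together.

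On the lower side, Sdc1 gave the smallest standard error of the 24. Syndecan 1 is a heparan sulfate proteoglycan of epithelial cells that binds matrix and growth factors. The late arrays ran from -0.47 through 0.43 to 0.74 and the early arrays from 1.19 through 1.52 to 2.04, with no overlap. Its day means declined within each period as well, and the 3 letters of day 7 (0.60, 0.31 and -0.47) lay below those of day 1 (1.83, 1.99 and 2.04). The difference was -1.28 ± 0.20 (SE; adjusted p = 0.338), and -1.13 without late C. The integrin and focal adhesion list, Sdc1 included, was mixed: of 21 tested, 3 had late letter means wholly above and 4 wholly below the early ones, beside 9.65% and 11.4% of all units, with a median of -0.06 that turned to 0.09 without late C. Cd9, a tetraspanin of adhesion complexes, differed by -1.05, and Itga6, a laminin receptor subunit, by -0.78.

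Tmsb4x encodes thymosin beta 4, which sequesters actin monomers. It averaged -2.51 ± 0.37 late and -0.97 ± 0.29 early (SD, n = 3 letters each). Late arrays ran from -3.72 through -2.35 to -1.78 and early arrays from -2.01 through -1.0035 to -0.07, and overlapped where late day 5 A (-1.86) and day 7 B (-1.78) lay above early day 3 B (-2.01). The difference was -1.53 ± 0.25 (SE; adjusted p = 0.338). Tagln2, a calponin family actin binding gene outside the selection because it had values on 15 arrays and named after its values were seen, had letter means of -0.97, -1.86 and -2.02 late and -0.01, 0.18 and 0.24 early. The actin list as a whole had 1 of 27 members wholly higher (Vim, 0.77) and 4 wholly lower, beside 9.65% and 11.4% of all units, with a median of -0.14 that was -4e-04 without late C. Actb itself had late letter means so far apart that late minus early was -0.46 ± 0.64 (SE), and 0.31 without late C.

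Late C was the lowest late letter in each of the 12 named lower genes except Fstl1, so also in Adgra2, Zfhx3, Stim1 and Niban2. Adgra2, an adhesion receptor gene of Wnt signalling in brain vessels, had late letter means of 0.88, 1.04 and -2.12 and early ones of 1.14, 1.92 and 1.30. Its difference was -1.52 ± 0.76 (SE; adjusted p = 0.493), but -0.49 without late C. Zfhx3, a homeodomain and zinc finger transcription factor gene, differed by -1.18 (-0.75 without late C), and Stim1, the calcium sensor of the endoplasmic reticulum, by -1.13 (-0.62). Niban2 did not overlap on any array, from -2.67 to -0.33 late and from 0.07 to 0.79 early, with a difference of -1.65 (-1.19 without late C).

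Fstl1, a secreted follistatin-like glycoprotein, and Pmepa1, a TGF-beta target that restrains the pathway, were also lower. Fstl1 averaged -1.58 ± 0.44 late and -0.27 ± 0.22 early (SD, n = 3 letters each), a difference of -1.31 ± 0.26 (SE; adjusted p = 0.361). Pmepa1 averaged -2.10 late and -0.82 early, a difference of -1.28 (-0.91 without late C). The TGF-beta and BMP list, which holds Fstl1 but not Pmepa1, had a median of 0.08 over 24 genes (0.01 without day 1), with 1 member wholly higher and 4, Fstl1 among them, wholly lower, beside 9.65% and 11.4% of all units. Hnrnpf, a splicing regulator, averaged -1.57 ± 0.67 late and -0.25 ± 0.11 early (SD, n = 3 letters each), with a difference of -1.32. Without late C that difference was -0.997.

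**Figure D4:**
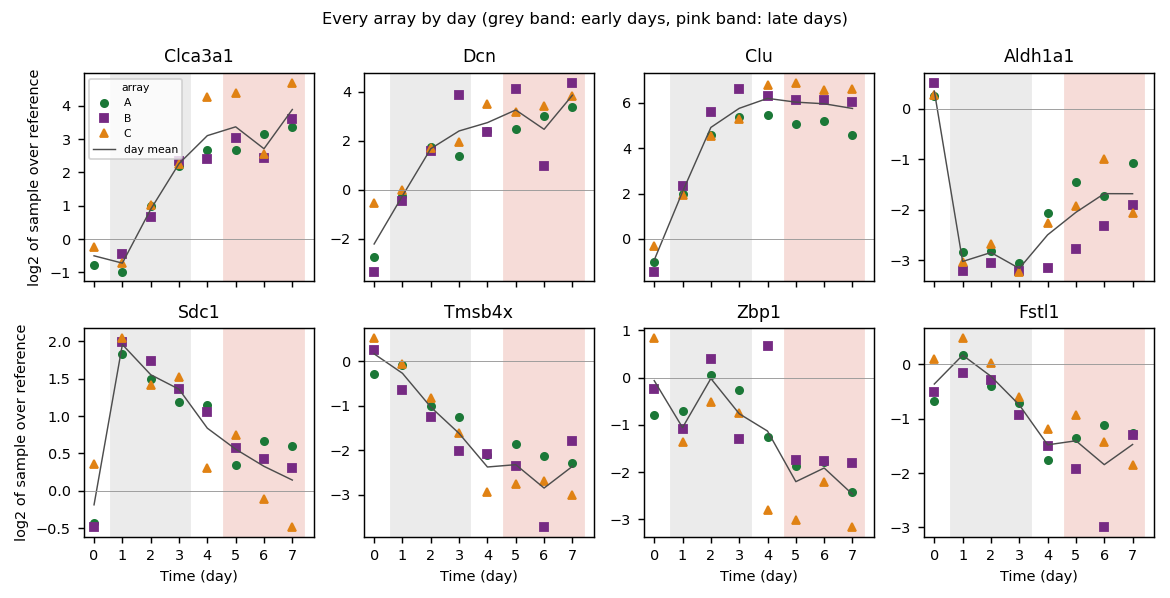
Every array of 8 named genes by day (horizontal axis) as log2 of sample over reference (vertical axis), letters A, B and C as symbols and the day mean as a line, with the late days shaded pink and the early days grey. Clca3a1 and Clu climb through the early days, Aldh1a1 lies between -3.23 and -2.67 on days 1 to 3, and Sdc1 and Tmsb4x decline from day 1.

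Day 4, which the comparison did not use, lay between the early and the late mean for 21 of the 24 named genes. The 3 exceptions, Clu, Dhrs3 and C1ra, had day 4 means beyond the late mean. Among units with letter means apart, day 4 lay between for 705 of 959 higher units (73.5%) and 863 of 1139 lower units (75.8%), beside 4771 of 9949 over all units (48%). The named genes and these units were chosen for a gap between early and late means. A wider gap makes a day 4 mean inside it more likely, so these shares are a description.

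Interferon response genes had a low median difference that differed between the late letters. These genes are induced by interferons and code for antiviral proteins. Of 17 list members tested, 5 had late letter means wholly below the early ones and 1 wholly above, beside 11.4% and 9.65% of all units, and the median difference was -0.43 beside -0.02 over all units. The median by letter was -0.05 for late A, -0.17 for late B and -0.84 for late C against the early mean, and the list median was -0.08 without late C. With late C left out, 5 of 17 were wholly lower and 3 wholly higher, beside 19.2% and 16.3% of all units.

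Zbp1, a sensor of Z-form nucleic acids, separated on all 18 arrays: late arrays ran from -3.16 through -1.87 to -1.74 and early arrays from -1.37 through -0.70 to 0.40. Its difference was -1.58 ± 0.30 (SE; adjusted p = 0.356), and -1.28 without late C. Ifitm1, which restricts virus entry, ran from -1.72 through -0.41 to 0.27 late and from 0.47 through 0.83 to 2.82 early, a difference of -1.61 ± 0.35 (SE; adjusted p = 0.376). Xaf1, an interferon-induced proapoptotic gene, ran from -2.86 to -2.02 late and from -2.11 to -0.81 early (difference -1.21). Ifitm2 and Ifitm3, neighbours and close relatives of Ifitm1, differed by -1.09 and -0.88, with late C at -1.66 and -1.53, so probes that cannot tell these paralogs apart could carry a shared value; this was not tested. Bst2 showed how far 1 letter could go: its late letter means were -1.65, -1.70 and -4.59, and its early ones -1.58, -1.49 and -1.71. Against the list's direction, Irf1, a transcription factor gene of the same response, had late letter means of 1.25, 0.72 and 1.27 and early ones of 0.65, 0.41 and 0.46.

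Promoters of the interferon list were searched for the interferon-stimulated response element, GAAA, 2 free bases and GAAA, on both strands, in RefSeq windows (GRCm38.p6) from 250 bases before to 50 after each gene's start. Of 11 members with a window, 9 held it (81.8%), beside 3.47% of the 4472 tested genes with a window and 3.44% of all 32851 windows. A match is a description and no sign of binding. The list was chosen as interferon genes, and B2m and Gbp2, which held the element, differed by 0.37 and 0.02. Of the named genes with a window, Clca3a1, Dhrs3 and Selenop held the element as well, and all 3 stood higher late. The sequences below show this element, in capitals, for the 2 list members Ifitm2 (chr7:140955912-140956211, minus strand) and Oas1a (chr5:120907476-120907775, minus strand), both lower late, and for Clca3a1 (chr3:144760928-144761227, minus strand), each 5′ to 3′ on the gene's strand.
Ifitm2: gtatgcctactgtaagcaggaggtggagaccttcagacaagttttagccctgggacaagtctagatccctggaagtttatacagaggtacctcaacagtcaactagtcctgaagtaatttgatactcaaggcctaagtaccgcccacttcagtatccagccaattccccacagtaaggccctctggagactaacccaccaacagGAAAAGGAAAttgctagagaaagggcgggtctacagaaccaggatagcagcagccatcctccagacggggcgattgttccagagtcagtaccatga
Oas1a: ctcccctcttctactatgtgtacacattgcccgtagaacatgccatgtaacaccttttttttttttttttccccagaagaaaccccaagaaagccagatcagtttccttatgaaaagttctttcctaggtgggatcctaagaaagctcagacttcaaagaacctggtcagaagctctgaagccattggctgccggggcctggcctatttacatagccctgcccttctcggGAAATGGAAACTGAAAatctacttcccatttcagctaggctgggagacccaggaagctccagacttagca
Clca3a1: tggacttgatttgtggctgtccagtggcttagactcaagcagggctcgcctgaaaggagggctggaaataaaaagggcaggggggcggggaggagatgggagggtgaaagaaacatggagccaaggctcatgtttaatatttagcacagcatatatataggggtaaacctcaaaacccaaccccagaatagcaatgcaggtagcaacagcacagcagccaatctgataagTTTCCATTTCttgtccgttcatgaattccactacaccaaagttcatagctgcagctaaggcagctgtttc
In Oas1a 2 overlapping matches form 1 run, the first site lies at -20 from the start, and late letter means were 0.14, -0.77 and -0.32 against early ones of 0.21, 0.19 and 0.17. In Ifitm2 the site lies at -46 and in Clca3a1 at -20.

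Nuclear genes of the mitochondrial ribosome and import machinery stood lower late in most members. Their proteins build the ribosome that translates mitochondrial mRNAs, and the TOM and TIM complexes bring proteins into the organelle. Of 57 members tested, 25 had late letter means wholly below the early ones and 2 wholly above, beside 11.4% and 9.65% of all units. The difference was negative in 50 of 57, beside 5185 of 9979 units, and the median was -0.34. At an unadjusted limma p under 0.05 stood 14 lower and 1 higher, beside 5.61% and 4.78% of all units, and 0 passed the adjusted threshold. The median was negative in each late letter (-0.32, -0.20 and -0.41 for A, B and C) and -0.29 without late C, where 29 were wholly lower and 3 wholly higher, beside 19.2% and 16.3% of all units. Under the 26 alternative settings it stayed between -0.43 and -0.23.

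Among subunits of the mitochondrial ribosome, Mrpl42 had late letter means of -1.07, -0.69 and -1.32 and early ones of 0.05, -0.22 and -0.06, a difference of -0.95 ± 0.22 (SE; adjusted p = 0.404). Mrps28 had late letter means of -1.14, -0.88 and -1.39 and early ones of 0.25, -0.40 and -0.48. Mrps11 differed by -0.93. Of the import genes, Tomm40, the outer membrane channel, differed by -0.84 and Timm17b, of the inner membrane translocase, by -0.78. Timm17a, the paralog of Timm17b, went the other way, with late letter means of 0.32, 0.08 and 0.51 and early ones of -0.52, -0.43 and -0.32.

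The promoters of these genes were searched for the site of NRF1, nuclear respiratory factor 1, a regulator of nuclear genes for mitochondria, GCGCA, 1 free base and GCGC, on both strands. It was in 11 of 50 mitochondrial ribosome and import genes with a window (22%) and 6 of 36 oxidative phosphorylation genes (16.7%), beside 13.4% of tested genes and 4.6% of all windows. Examples from genes with late letter means wholly below the early ones are Mrpl12 (chr11:120484387-120484686, plus strand), Mrpl32 (chr13:14612988-14613287, minus strand) and Ndufa8 (chr2:36049289-36049588, minus strand), shown 5′ to 3′ on the gene's strand with the site in capitals.
Mrpl12: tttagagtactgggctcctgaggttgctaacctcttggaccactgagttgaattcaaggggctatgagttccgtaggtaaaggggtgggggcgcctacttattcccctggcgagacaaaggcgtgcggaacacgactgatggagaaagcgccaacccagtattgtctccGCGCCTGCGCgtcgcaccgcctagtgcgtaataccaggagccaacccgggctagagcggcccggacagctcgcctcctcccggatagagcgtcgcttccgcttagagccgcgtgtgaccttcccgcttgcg
Mrpl32: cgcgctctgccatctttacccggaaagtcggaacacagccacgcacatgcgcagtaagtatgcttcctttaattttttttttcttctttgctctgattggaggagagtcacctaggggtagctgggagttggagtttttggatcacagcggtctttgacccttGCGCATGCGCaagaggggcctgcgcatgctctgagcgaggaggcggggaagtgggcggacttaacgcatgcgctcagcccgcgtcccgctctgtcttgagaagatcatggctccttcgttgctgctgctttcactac
Ndufa8: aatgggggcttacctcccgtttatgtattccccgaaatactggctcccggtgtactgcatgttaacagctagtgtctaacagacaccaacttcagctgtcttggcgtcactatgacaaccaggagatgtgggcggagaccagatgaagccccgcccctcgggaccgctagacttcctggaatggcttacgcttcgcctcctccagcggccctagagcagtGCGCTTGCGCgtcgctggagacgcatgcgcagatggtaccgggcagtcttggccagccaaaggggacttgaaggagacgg
The sites lie at -81, -87 and -30 from the start. Mrpl12 had late letter means of -0.48, -0.86 and -1.26 and early ones of -0.37, -0.21 and -0.44, and Mrpl32 had -0.90, -1.58 and -0.83 late and -0.47, -0.71 and -0.53 early. Ndufa8, a subunit of complex I, had -0.58, -0.40 and -1.42 late and 0.05, 0.30 and 0.04 early. Of the other mitochondrial ribosome and import genes with the site, Mrpl57 was also wholly lower (-0.48). Letter means overlapped in Mrpl9 (0.11), Timm8b (0.07), Tomm20 (0.04), Mrps9 (-0.14), Mrpl30 (-0.21), Mrpl39 (-0.25), Mrpl17 (-0.62) and Mrpl45 (-0.80). Here too a match is a description and no sign of binding.

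Oxidative phosphorylation subunits were less uniform. Of 44 tested, 7 were wholly lower and 1 wholly higher, beside 11.4% and 9.65% of all units. The difference was negative in 36, beside 5185 of 9979 units, and the median was -0.22 (-0.46, 0.16 and -0.35 for late A, B and C). Sdhd, a membrane anchor of complex II, differed by -0.64, and Atp5b, the catalytic subunit of ATP synthase, by 0.60 with late letter means of 0.37, 0.04 and 0.87 and early ones of -0.22, -0.02 and -0.27.

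Cytoplasmic ribosomal protein genes were lower in 18 of 54 members by letter means, with 0 wholly higher, beside 11.4% and 9.65% of all units, and a median of -0.20. The shift was largest in late A (-0.48, beside -0.07 and -0.11 in late B and C), and without late C 26 of 54 were wholly lower, beside 19.2% of all units. Rpl7a, of the large subunit, separated on all 18 arrays (late letter means -0.52, -0.58 and -0.97, and early ones 0.14, -0.04 and -0.04). Rplp1, of the ribosomal stalk, differed by -0.90 and Rpl29 by -0.73. Ribosomal protein genes have many near-identical pseudogene copies, so their spots can carry signal of more than 1 locus. Proteasome genes had a median of -0.21 over 30 members, 5 wholly lower and 0 wholly higher, beside 11.4% and 9.65% of all units, and the median was -0.12 without late C.

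Cell cycle genes were mostly below the reference on both sides, with a list median of -1.01 late and -0.89 early. Of 58 tested, 6 were wholly lower and 0 wholly higher, beside 11.4% and 9.65% of all units, so the share lower was near that of all units, and the median difference was -0.17. The array medians of the list ran from -1.16 to -0.86 late and from -1.32 to -0.09 early, and the median difference turned to 0.11 without day 1. CCAAT, a box common in promoters of these genes, was in 37 of 49 (75.5%), beside 43.2% of tested genes. Smc2, a condensin subunit, had late letter means of -1.31, -1.49 and -1.62 and early ones of -0.81, -0.75 and -0.88. Mki67, a proliferation marker, ran from -1.90 to -1.64 on the late A and B arrays and from 0.24 to 0.51 on the 3 late C arrays, and its early arrays ran from -2.11 to 0.06. The list did not share the high Mki67 values of late C. Its median against the early mean was -0.11, -0.15 and -0.26 for late A, B and C.

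Lysosomal genes were mostly higher late than over the early days together. Of 31 tested, 11 were wholly higher and 2 wholly lower, beside 9.65% and 11.4% of all units. At an unadjusted limma p under 0.05 stood 6 higher and 1 lower, beside 4.78% and 5.61% of all units. The median difference was 0.32. It was positive in each late letter (0.13, 0.38 and 0.22), 0.29 without late C and 0.15 without day 1. The mean of the array medians was 0.56, 0.92 and 1.19 on days 1 to 3, and 1.07, 1.05 and 1.18 on days 5 to 7, so day 3 was already as high as the late days. Laptm4b, a lysosomal membrane protein gene, had late letter means of 2.04, 2.81 and 2.01 and early ones of 1.21, 1.25 and 1.13 (difference 1.09 ± 0.25, SE; adjusted p = 0.404). Hexa, the alpha subunit of beta-hexosaminidase, differed by 0.74, and the cysteine protease gene Ctsl by 0.62. Ctsb, another cysteine protease, averaged 2.37 ± 0.33 late and 1.89 ± 0.22 early (SD, n = 3 letters each), and its letter means overlapped. Grn, the progranulin gene, went the other way, at -0.42, -0.20 and 0.31 late and 0.55, 0.31 and 0.94 early. Autophagy genes showed a smaller median of 0.08 over 18 members, 4 wholly higher (Atg14, Atg12, Bnip3l and Fundc1) and 0 wholly lower, beside 9.65% and 11.4% of all units. That median was -4e-04 without day 1 and 0.165 without late C, and it changed sign in 3 of 26 settings. In addition, 1 of 5 Bnip3l features went the other way. TCACGTGA, the CLEAR element of lysosomal genes, was in 4 of 26 lysosomal promoters (15.4%), beside 2.66% of tested genes. It was also in 5 of 39 V-ATPase and membrane traffic genes with a window (12.8%). Of the 4 lysosomal genes with the element, Ctsa (0.34), Ctsd (0.14) and Gla (0.13) had overlapping letter means, and Cln3 (-0.42) was wholly lower. A match is a description and no sign of binding.

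Epithelial junction genes were split by member. Of 17 tested, 6 were wholly higher and 1 wholly lower, beside 9.65% and 11.4% of all units. The median difference was 0.17, which was 0.40 without late C and 0.06 without day 1. The mean of the array medians was -0.57, -0.36 and -0.34 on days 1 to 3, and -0.35, -0.39 and -0.20 on days 5 to 7. The wholly higher genes were desmosomal and adherens junction genes (Pkp2, Pkp4, Ctnna1 and Ctnnb1), the tight junction gene Cgn and the gap junction gene Gja1. Cgn, encoding cingulin, had late letter means of -0.17, -0.94 and -0.77 and early ones of -1.40, -2.12 and -1.42. Crb3, an apical polarity gene, was lower, at -1.24, -0.96 and -1.55 late and -0.14, -0.33 and -0.47 early.

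Extracellular matrix genes had a median of -0.44 over 19 genes (-0.33 without late C), with 7 wholly lower and 2 wholly higher (Dcn and Loxl1), beside 11.4% and 9.65% of all units. Col27a1, a fibrillar collagen gene outside that list with values on 17 arrays and named after its values were seen, had late letter means of -0.30, -0.49 and -0.67 and early ones of 1.11, 1.14 and 1.24. Its difference was -1.65 ± 0.18 (SE; adjusted p = 0.0817, as for Clca3a1). Col5a2 differed by -1.0008, Nid1, a basement membrane linker, by -0.97, Col6a2 by -0.96 and Fn1 by -0.52. The protease and inhibitor list had 3 of 13 wholly lower, beside 11.4% of all units, Adam12 (-0.99), Timp3 (-0.83) and Adamts4 (-0.72).

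Fibroblast markers, which the feeder layer would carry, did not move as 1 group. Of 20 genes fixed, 9 were tested; 2 were wholly higher (Dcn, 1.91, and Tcf21, 1.13) and 2 wholly lower (Col6a2 and Col5a1), beside 9.65% and 11.4% of all units, with a median of -0.34. Their median per array ran from 0.40 to 1.12 late and from 0.18 to 1.17 early. Pdgfrb differed by -0.34 and Prrx1 by 0.00. The part of fibroblasts in the matrix values was not tested. Of blood markers, Tyrobp differed by 0.97, Hba-a1 by -0.42 and Lyz2 by -0.12; of smooth muscle markers, Smtn by 0.59 and Mylk by 0.58; and of endothelial markers, Cdh5 by 0.08. Ratios to the reference have no zero, so whether a marker is absent cannot be read from them.

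**Figure D5:**
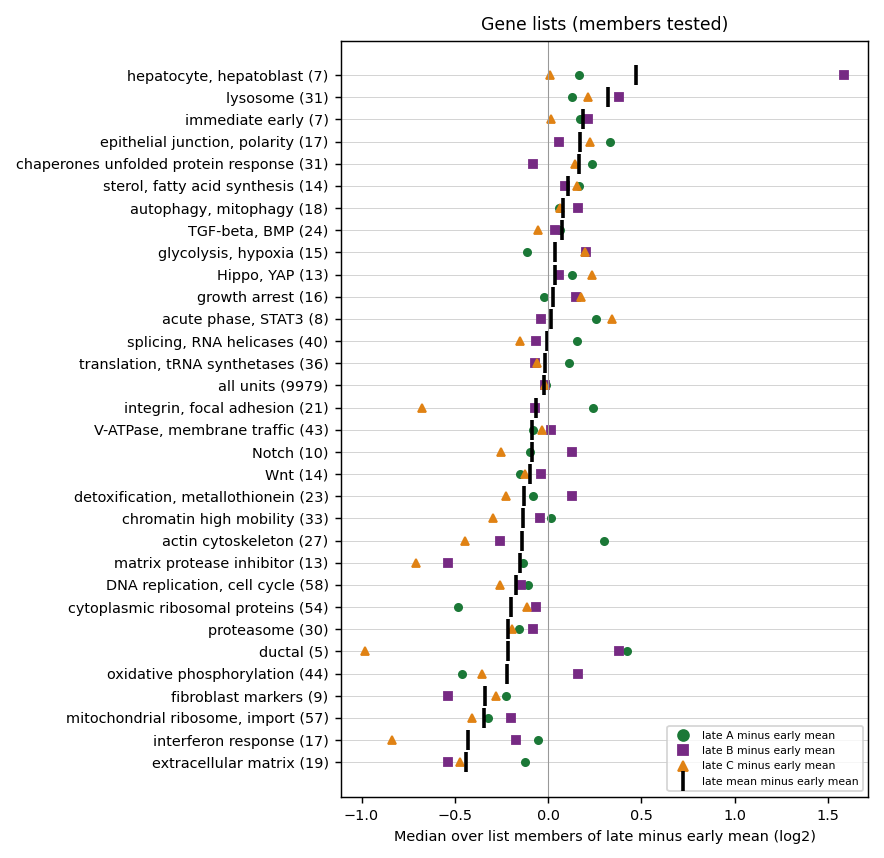
Median over list members of late minus early (log2, horizontal axis) for each list with at least 4 members tested (number in brackets), as a black bar for the mean of 3 late letters and as coloured symbols for each late letter against the early mean. The mitochondrial ribosome list is negative and the lysosome list positive in all 3 letters, while the interferon list is lowest in late C (-0.84) and the hepatocyte list highest in late B (1.59).

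Genes of sterol synthesis separated in 4 of 14 members, all higher, beside 9.65% of all units, with a median of 0.11. Msmo1, a methyl sterol oxidase, and Insig2, which retains the sterol sensor SCAP in the endoplasmic reticulum, separated on all 18 arrays. Msmo1 had late letter means of -0.49, -0.22 and -0.41 and early ones of -1.28, -1.26 and -1.37 (difference 0.93 ± 0.17, SE; adjusted p = 0.356), so it was below the reference in both periods. Insig2 had late letter means of 1.32, 1.06 and 1.29 and early ones of 0.27, 0.48 and 0.39 (difference 0.84 ± 0.18, SE; adjusted p = 0.376).

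Markers of the hepatoblast itself depended on the letter and on day 1. Only 7 of 47 genes fixed for hepatocytes and hepatoblasts were tested; Alb had no value here. Afp, the fetal plasma protein, had late arrays from -1.54 through 0.81 to 2.65 and early arrays from -0.47 through 0.82 to 1.22. Late B stood at 2.29, 2.56 and 2.65 on days 5 to 7, whereas late C stood at 0.45, -1.54 and 0.81. The difference of 0.47 ± 0.56 (SE; adjusted p = 0.758) was 1.04 without late C and -0.25 without late B. Igf2, the fetal growth factor gene, followed the same letters (0.40 ± 0.47, SE; -0.20 without late B), and the imprinted RNA H19 differed by 0.87 ± 0.60 (SE), with 1 of its 4 features going the other way. Without day 1 the difference was 0.13 for Afp, 0.08 for Igf2 and 0.15 for H19. The median of the hepatocyte and hepatoblast list, 0.47, was 0.13 without day 1, and both are the values of Afp itself. Of the 7 tested, 2 were wholly higher and 0 wholly lower, beside 9.65% and 11.4% of all units. Without late C the list median was 0.99, with 5 of 7 wholly higher and 1 wholly lower, beside 16.3% and 19.2% of all units. The bile duct marker Krt19 had values on 4 late and 8 early arrays, from -0.41 to 0.66 late and from -0.45 to 0.85 early, too few for the test. The ductal list had 5 members tested and a median of -0.22, which was 0.42, 0.38 and -0.98 in late A, B and C.

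The remaining lists had medians between -0.13 (chromatin and detoxification genes) and 0.19 (immediate early genes). Each had at most 5 members wholly to either side, beside 9.65% of all units wholly higher and 11.4% wholly lower. Lists with 5 wholly lower were chromatin (of 33), V-ATPase and membrane traffic (of 43) and translation genes (of 36). The immediate early median, over 7 genes, was -0.06 without day 1 and -0.11 without day 6, and changed sign in 8 of 26 settings. Chaperones stood at 0.17, Hippo pathway genes at 0.04, Notch genes at -0.09 and Wnt genes at -0.10.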

How the data were processed

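Transcript levels of HBC-3 cells were measured on 2-colour spotted arrays. The authors deposited log2 ratios per feature (taken as log2 from their range; base, numerator, scanner, background correction, normalization and reason for empty cells: not given in the sources used here). Per the labels' protocols, Cy3 carried the undifferentiated reference and Cy5 the sample, with no dye swap. Column medians as deposited lay between -0.0253 and 0.0295 late and between -0.0034 and 0.01 early; beyond this the scale, the centring and the direction are unknown. Precision is limited by the number of arrays; late minus early had a median standard error of 0.233.

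Symbols came from the platform annotation (13319 of 24157 features with 1 symbol, 589 with several, 10249 unlisted), updated for 13290 through Entrez identifiers. Features of one symbol were averaged, and features without a single symbol stood as their own units; where features of a gene disagree in sign the text says so for genes named in detail. Arrays were centred on their medians, a letter mean needed 2 of its 3 arrays, and a unit needed all 6 letter means, which left 9979 of 19153 units with any value. limma 3.58.1 in R 4.3.3 (lmFit, eBayes) compared 3 late with 3 early letter means, 2-sided, with Benjamini-Hochberg adjustment at 0.05; no set test was used. The procedure was tested on simulated data. Named genes are the 12 with the largest difference per direction among genes with all 18 values and letter means that do not overlap, since none passed the threshold, and Afp, Alb, Igf2, H19, Krt19, Clu, Dcn, Mki67, Ccnd1, Ctsb and Actb whatever their p (Alb and Ccnd1 had no value here); list members are given with their list. The comparison, members and gene lists were chosen with earlier results of these data known. Promoters were RefSeq windows (GRCm38.p6), found for 4472 of 5459 tested genes and 16 of the 24. Figures were drawn with matplotlib.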

Additional observations from a re-analysis of the deposited data

Results flagged for a closer look

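In 30 genes examined on each side, 60 sets of 9 arrays in all, the highest or lowest array was far from the next in 3 sets by Dixon's test, which chance gives in about 1 of 20 sets. Fstl1 on the late day 6 B array was at -2.99, with the next late array at -1.93. Igf2 on the late day 6 C array was at -1.14, with the next late array at 0.81. Ifitm1 on the early day 2 B array was at 2.82, with the next early array at 1.12. Without day 6, late minus early was -1.17 for Fstl1 and 0.69 for Igf2.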

How the results depend on the processing

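Among 26 alternatives, the count of 0 calls of 9979 by limma (1037 at an unadjusted p under 0.05) rose to 819 with all 18 arrays taken as independent (361 higher, 458 lower) and to 697 with 24 arrays in 8 day groups, both of which count arrays of 1 letter as replicates. It was 42 with arrays scaled to one median absolute deviation, 6 with quantile normalization, 3 without day 3, 2 without day 5, 73 for day 7 alone against day 1 alone, and 23 with limma array weights, which were chosen after the data were seen. Leaving out 1 letter gave 0 to 5 calls, the 5 without late C (4 higher, 1 lower). With the letter as a replicate block there was 1 call, Clca3a1 (adjusted p = 0.0289). Deviations of late and early means of the same letter correlated at 0.103, 0.149 and 0.013 for A, B and C. Late A correlated best with early C (0.162), late B with early B and late C with early B (0.016). The letters were not taken as pairs because the comparison set the letter within a period as the independent unit. These correlations did not decide it. The other alternatives gave 0, including a random block for letters (correlation 0.378), uncentred values, complete units and the looser filter. The cause of these shifts was not tested. Units wholly higher numbered 608 and wholly lower 1078 without day 7, and 1571 and 1572 with the looser filter. The 24 genes of largest difference never changed sign in the settings run for them, each feature as its own unit not among these. They were chosen by size and by letter means that do not overlap, so leaving out 1 letter could not change their sign. Genes named whatever their p, which were not chosen this way, changed sign in some settings. Leaving out 1 letter, Afp ran from -0.25 (without late B) to 1.04, Igf2 from -0.20 (without late B) to 0.88, Mki67 from -0.53 (without late C) to 0.56, and Actb from -0.90 to 0.31 (without late C). Ctsb was -0.25 and Actb 0.26 with scaled arrays. Mki67 was also -0.0357 without day 2, -0.0615 without day 3, -0.80 for day 7 against day 1 and -0.12 with array weights. List medians moved by more than the pooled SD between the list's letter medians of a period in 83 of 804 values. The lysosome median ran from -0.04 to 0.53.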
